A study of Mus musculus with 36 samples.

Results

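The difference between cells with the mutant p53 protein I192S and control cells was read from 6 of the 36 libraries of the study, the 3 I192S and the 3 negative control libraries of nutlin-treated cells, chosen by their labels. All came from mouse lymphoma cell lines of Em-myc background, in which a Myc transgene is driven by an immunoglobulin enhancer: AH47A, 287 and 621. I192S cells expressed the mutant TRP53 protein I192S, and control cells carried the negative control, whose description names pMIG. Each group had 1 library per line (n = 3), so a line gave 1 I192S and 1 control library. Both groups were kept for 12 hours with 5 µM nutlin-3a, which keeps MDM2 from binding p53, and 25 µM QVD-OPH. The second agent inhibits caspases and was given against cell death, so cells that would have died can be among those sampled. Further libraries used here were the untreated I192S and control cells of the same lines, and the cells with G280, R246Q, R270H or V170M under nutlin. The sources used here do not say whether untreated cells had the caspase inhibitor. Per the design text, nutlin activates wild-type TRP53 in these lines, so I192S was expressed beside the cells' own p53.

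The p53 protein acts as a tetramer that binds DNA and raises the transcription of genes that stop the cell cycle, start apoptosis, repair DNA and feed back on p53 itself. Its ubiquitin ligase MDM2 keeps it scarce, and nutlin-3a frees it. A mutant subunit that joins a tetramer with wild-type subunits can lower the activity of the whole complex, which is called a dominant-negative effect. Activated p53 is also known to lower the expression of cell cycle and replication genes, in large part through p21, and of sterol synthesis genes.

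Under nutlin, 23 of 85 tested p53 target genes were lower in I192S than in control cells and 0 higher, and the median difference of the 85 was widest in line AH47A. Of the sterol genes 5 of 22, and of the replication genes 9 of 38, were higher with I192S and 0 lower. Of 12321 genes tested, 328 (2.66%) passed an adjusted p of 0.05 in edgeR's quasi-likelihood test, 143 higher (1.16%) and 185 lower (1.5%) with I192S. Of these 328 genes, 316 had the same sign in all 3 lines and 33 differed by at least 1 on the log2 scale. The genes called lower had a median log2 difference of -0.67 in AH47A, -0.42 in 287 and -0.32 in 621, and those called higher of 0.52, 0.53 and 0.41 in the same order. With library totals in place of TMM scaling, 317 genes were called, 173 higher and 144 lower. The number of calls rests on how the spread is estimated. The calls above share 1 spread over all 36 libraries, with the line blocked within each treatment. Nutlin libraries varied more (biological coefficient of variation 11.8%) than untreated ones (7.01%), so the p-values under nutlin can be too small. With a spread for each treatment (limma-voom) 185 genes were called, with the nutlin libraries alone 13, and with the 6 compared libraries alone 0 (1078 at an unadjusted p under 0.05). Without a line term 0 were called (106 at an unadjusted p under 0.05), without AH47A 75, and without 287 only 3. Genes named below that also passed with the nutlin libraries alone are marked as such.

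The 6 compared libraries held 5404113 to 9689091 counts. Summed markers of B cells were high in both groups: mature B cell markers summed to 4220 to 6920 CPM (TMM-scaled CPM, the reads of a gene relative to all reads of its library) with I192S and 4290 to 6350 CPM in controls. Myeloid markers summed to 10.5 to 58.8 CPM with I192S and 14.6 to 49.1 CPM in controls, with Adgre1, S100a8 and S100a9 at 0 in both groups. T cell markers summed to at most 25.1 and 21.3 CPM with Cd3e, Cd3g, Cd4 and Trbc1 at 0, and markers of natural killer cells, erythroid cells and fibroblasts to at most 1.85 CPM. Each library holds RNA of a whole culture, so fewer cells of a kind and less RNA per cell cannot be told apart. The p-values measure the spread between single libraries of these lines, since the labels name no repeat culture.

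Trp53, which encodes p53, checks the labels. Its level was 872, 1145 and 595 CPM in the I192S nutlin libraries of AH47A, 287 and 621, against 261, 446 and 300 CPM in the control libraries. The groups did not overlap, and I192S was the higher one in every line. The log2 difference was 1.37 ± 0.24 (SE; edgeR adjusted p = 0.00543, also called with the nutlin libraries alone). It was 1.74 in AH47A, 1.36 in 287 and 0.99 in 621. The call was lost without line 287 or without the I192S library of AH47A. Before treatment the difference was 2.23 ± 0.25 (edgeR adjusted p = 0.000139), the one call among untreated cells (0.00812% of the genes tested). Counts on Trp53 (NCBI gene 22059, chromosome 11, 69580348 to 69591873 of GRCm38) do not tell the cells' own transcript from that of the construct. The labels number the exchanged residue, and the stretch of the mouse coding sequence around it is shown to place it, from GENCODE vM21 transcript Trp53-203, with the numbered codon in capitals. That codon, atc, encodes isoleucine, the residue I of the label. In this transcript 4 of the 5 labels name the residue of the mouse codon at their number, although the design text calls the proteins human; the label G280 does not.
Trp53-203: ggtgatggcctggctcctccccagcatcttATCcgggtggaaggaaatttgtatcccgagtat

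The promoters of 4 p53 targets that follow are shown with the p53 decamer, the unit that occurs in pairs in p53 binding sites, in capitals. They are 200 bases upstream of a RefSeq transcription start on GRCm38.p6, 5′ to 3′ on the strand of the gene. Those shown hold a decamer, while the 200 bases upstream of the called targets Mdm4, Fas and Gtse1 held none. Cdkn1a lies at chr17:29090779-29090978 (+), with decamers that start 73 and 51 bases before the transcript. The 200 bases upstream of another Cdkn1a start, at chr17:29093569-29093768 (+), held no decamer. Mdm2 lies at chr10:117710759-117710958 (-), Ccng1 at chr11:40755287-40755486 (-) and Ei24 at chr9:36797335-36797534 (-), with 1 decamer each.
Cdkn1a: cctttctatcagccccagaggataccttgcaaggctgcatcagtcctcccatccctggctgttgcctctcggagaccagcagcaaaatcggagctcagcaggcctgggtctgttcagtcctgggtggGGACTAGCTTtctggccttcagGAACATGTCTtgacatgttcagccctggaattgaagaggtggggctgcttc
Mdm2: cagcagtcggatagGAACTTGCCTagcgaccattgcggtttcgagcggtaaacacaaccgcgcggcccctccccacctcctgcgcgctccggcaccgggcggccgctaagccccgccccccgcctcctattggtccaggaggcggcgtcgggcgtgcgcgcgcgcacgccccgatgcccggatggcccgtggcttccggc
Ccng1: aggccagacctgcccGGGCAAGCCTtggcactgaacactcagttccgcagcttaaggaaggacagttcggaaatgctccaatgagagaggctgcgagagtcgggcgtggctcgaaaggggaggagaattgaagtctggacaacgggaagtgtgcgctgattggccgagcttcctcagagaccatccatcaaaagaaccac
Ei24: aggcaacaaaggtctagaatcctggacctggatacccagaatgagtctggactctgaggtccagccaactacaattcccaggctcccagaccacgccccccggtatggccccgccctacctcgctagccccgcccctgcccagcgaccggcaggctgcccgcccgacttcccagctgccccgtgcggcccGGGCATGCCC
Searched on both strands in the 250 bases upstream of 27025 mouse genes, the decamer was in 8.2% of all genes. It was in 4 of 6 feedback genes with a promoter in the table (Ccng1, Mdm2, Ppm1d and Rchy1), in 2 of 10 arrest genes and in 4 of 12 apoptosis genes. Outside the p53 targets, 4 of 16 sterol genes and 2 of 30 replication genes held it. A match describes these letters and is not a measured binding site.

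The 6 lists of p53 targets held 90 genes, of which 85 were tested. Of these, 23 were called lower and 0 higher with I192S, where 1.5% of all genes tested were lower and 1.16% higher. Their median log2 difference was -0.35, against 0.01 over all genes tested. In 43 of the 85 the I192S library was the lower one in all 3 lines, against 16.6% of all genes tested, and in 2 the higher one, against 15%. The median was -0.71 in AH47A, -0.23 in 287 and -0.11 in 621. With a spread for each treatment 22 of the 85 were called lower, with the nutlin libraries alone 2 (Mdm4 and Zmat3), and without AH47A 2 (Mdm4 and Mdm2). In the test of whether the response to nutlin differed between I192S and control, 0 of the 85 were called.

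In comparisons of I192S with controls, fell and rose mean lower and higher with I192S under nutlin. They do not describe the response to nutlin. Among the feedback genes, which act back on p53, 4 of 6 fell, where 1.5% of all genes tested did. Their median difference was -0.51. Mdm4, the MDM2 relative that inhibits p53, was at 195, 504 and 270 CPM with I192S in AH47A, 287 and 621, against 478, 1062 and 405 CPM in controls. Every I192S library was below the control of its line, while the ranges of the groups overlapped because the lines differ in level. The difference was -0.99 ± 0.13 (edgeR adjusted p = 0.000392, also called with the nutlin libraries alone). Mdm2 was at 161, 1095 and 276 CPM with I192S and 440, 1420 and 365 CPM in controls. I192S was at 36.7% of the control level in AH47A, 77.1% in 287 and 75.6% in 621, so the shortfall was largest in AH47A. The fitted difference was -0.72 ± 0.13 (edgeR adjusted p = 0.00382), and -0.39 (edgeR adjusted p = 0.043) without AH47A. Ccng1, the gene of cyclin G1, was at 318, 739 and 568 CPM with I192S and 631, 864 and 686 CPM in controls (-0.50 ± 0.10, edgeR adjusted p = 0.0079). Rchy1, a ubiquitin ligase of p53, fell by 0.52 on the log2 scale (edgeR adjusted p = 0.0357). Ppm1d, a phosphatase that acts on p53, was at -0.30 (edgeR adjusted p = 0.0934) and the ubiquitin ligase gene Cop1 at 0.06 (edgeR adjusted p = 0.866), and neither passed the test.

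Of 12 tested arrest genes, 4 fell and 0 rose, where 1.5% of all genes tested fell and 1.16% rose. Cdkn1a, which encodes the cyclin-dependent kinase inhibitor p21, was at 131, 504 and 176 CPM with I192S in AH47A, 287 and 621, against 398, 605 and 234 CPM in controls. The I192S library held 32.8% of the control level in AH47A, 83.2% in 287 and 75.3% in 621. The fitted difference was -0.72 ± 0.16 (edgeR adjusted p = 0.0188), and -0.34 (edgeR adjusted p = 0.172) without AH47A. Before treatment Cdkn1a was at most 6.42 CPM in all 6 I192S and control libraries. Zmat3, an RNA-binding protein, was at 320, 466 and 612 CPM with I192S and 742, 634 and 822 CPM in controls, and these ranges did not overlap (-0.70 ± 0.16, edgeR adjusted p = 0.021, also called with the nutlin libraries alone). Gtse1, which binds p53 and microtubules, fell by 0.56 (edgeR adjusted p = 0.0133). The kinase gene Plk2 fell by 0.74 (edgeR adjusted p = 0.0178), yet in 621, where it was near 1 CPM, I192S was the higher library.

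Of 15 tested apoptosis targets, 5 fell and 0 rose, where 1.5% of all genes tested fell and 1.16% rose. Bax, the effector that opens mitochondria, was at 149, 202 and 187 CPM with I192S and 203, 277 and 216 CPM in controls. All 3 I192S libraries lay below all 3 controls (-0.37 ± 0.09, edgeR adjusted p = 0.0195). Fas, the gene of a death receptor, was at 1.65, 8.75 and 7.54 CPM with I192S and 7.82, 27.5 and 9.25 CPM in controls. I192S was at 21.1% of the control in AH47A and 31.9% in 287 but at 81.5% in 621 (-1.35 ± 0.34, edgeR adjusted p = 0.0381). Ei24, which was first found as a p53-induced gene, fell by 0.45 (edgeR adjusted p = 0.00319). Apaf1, the core of the apoptosome, fell by 0.30 (edgeR adjusted p = 0.0419) and Trp53inp1 by 0.61 (edgeR adjusted p = 0.0461). Neither gene of the BH3-only pair PUMA and NOXA passed. Bbc3 (PUMA) was at 143, 539 and 139 CPM with I192S and 327, 685 and 150 CPM in controls (-0.51 ± 0.25, edgeR adjusted p = 0.295). Pmaip1 (NOXA) was at 160, 726 and 161 CPM with I192S and 280, 846 and 172 CPM in controls (-0.35 ± 0.23, edgeR adjusted p = 0.456). In both genes I192S was the lower library in every line, and the gap was widest in AH47A. Bcl2l11, which encodes the BH3-only protein BIM, was at 142, 170 and 220 CPM with I192S and 241, 291 and 220 CPM in controls. It fell by 0.49 (edgeR adjusted p = 0.0414) and was the one call among 9 tested BCL2 family genes. The caspase gene Casp9 rose by 0.69 (edgeR adjusted p = 0.0184). It was the only call of 15 caspase and death adaptor genes, whose median difference was 0.05. Casp9 was at 19.8, 14.2 and 21.1 CPM with I192S and 13.8, 8.25 and 12.2 CPM in controls, which did not overlap.

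**Figure D1:**
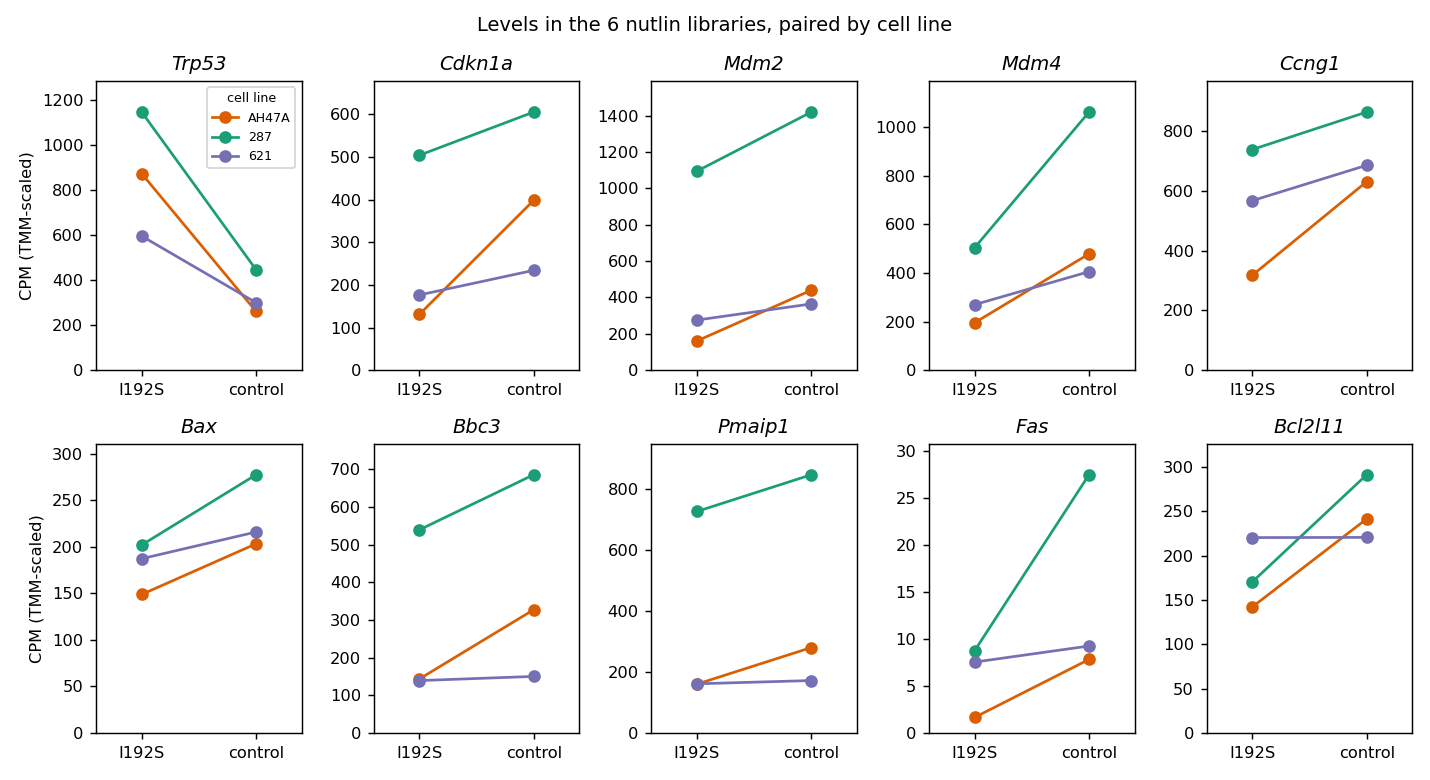
Levels (CPM after TMM scaling, linear axes from 0) of Trp53, 8 p53 targets and the BCL2 family gene Bcl2l11 in the 6 nutlin libraries. Each point is 1 library, each line joins the I192S and control library of a cell line. Trp53 was higher with I192S in all 3 lines, and the 8 p53 targets were lower with I192S in all 3. Bcl2l11 was at 220 CPM in both 621 libraries.

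Among the other targets, 2 of 16 metabolic, 2 of 10 repair and 6 of 26 remaining genes fell, and 0 rose. Over all genes tested, 1.5% fell and 1.16% rose. Lpin1, a phosphatidate phosphatase, was at 10.2, 42.7 and 40.2 CPM with I192S and 36.7, 115 and 62.1 CPM in controls (-1.19 ± 0.30, edgeR adjusted p = 0.0346). Ak1, an adenylate kinase, was at 7.16, 28.2 and 16.7 CPM with I192S and 33.9, 73.9 and 26.3 CPM in controls (-1.40 ± 0.35, edgeR adjusted p = 0.0381). Both showed the same order of lines, with the widest gap in AH47A and the narrowest in 621. The repair genes were Polk, a translesion DNA polymerase (-0.70, edgeR adjusted p = 0.0133), and Ercc5, the XPG nuclease of nucleotide excision repair (-0.75, edgeR adjusted p = 0.0157). The thiamine transporter gene Slc19a2 differed by -0.64, -0.59 and -0.49 in AH47A, 287 and 621 (edgeR adjusted p = 0.00543). Exoc4, Notch1, Cd80, Crip2 and Pvt1, the noncoding gene beside Myc, were the others called, with log2 differences of -0.71, -0.80, -1.27, -1.15 and -0.67. Myc itself did not pass (-0.09 ± 0.10, edgeR adjusted p = 0.689): it was at 3077, 3851 and 5224 CPM with I192S and 3995, 3432 and 5617 CPM in controls. Sesn2, a stress-induced inhibitor of mTORC1 signalling, was at -0.48 (edgeR adjusted p = 0.143) and Rrm2b, a subunit of ribonucleotide reductase, at -0.39 (edgeR adjusted p = 0.0925), and did not pass either.

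To describe nutlin-responsive genes without the libraries compared, genes were classed by the nutlin response of the other 4 mutants. Which of these genes depend on p53 was not tested. A class of 559 genes rose there by at least 1 on the log2 scale, 105 fell by at least 1, and 11657 were neither. Of the 559, 44 (7.87%) were lower and 0 higher with I192S than in the control under nutlin, where 1.5% of all genes were lower. In 34.4% of them I192S was the lower library in all 3 lines, against 16.6% of all genes. With a spread for each treatment 41 of the 559 were called lower, with the nutlin libraries alone 3, and with the 6 compared libraries alone 0. Of the 105 fallen genes, 3 (2.86%) were called higher (C78197, Lfng and Ocel1), where 1.16% of all genes were, and 0 lower. Untreated, the median difference of the 559 was 0.07.

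The lines differed in this class. The median difference was -0.93 in AH47A, where 499 of the 559 genes were lower with I192S and 257 were lower by more than 1. In 287 it was -0.19, with 355 genes lower and 69 by more than 1. In 621 it was -0.03, with 295 genes lower and 31 by more than 1. Over all genes tested the medians were -0.02, 0 and 0. In AH47A the median response of the class to nutlin was 1.38 with I192S and 2.23 in the control. It was 2.56 and 2.89 in 287, and 1.30 and 1.38 in 621. In the other mutants it was 1.425 in AH47A, 2.381 in 287 and 0.969 in 621, below the control in every line. The class was chosen by the response of these mutants, so their medians depend on that choice. Under nutlin the median difference of I192S from them was -0.32 in AH47A, 0.13 in 287 and 0.46 in 621. A test of the difference between lines, which averages untreated and nutlin libraries, called 105 of the 559 genes (18.8%), against 6.08% of all genes tested. The median over the fitted values of the class was -0.34, and -0.12 without AH47A, -0.53 without 287 and -0.47 without 621. Without AH47A 3 of the class were called lower and 3 higher, and without 287 0 were called lower. The share of counts on the mitochondrial ribosomal RNA genes was lower with I192S in AH47A and 621 and higher in 287: it was 0.328%, 0.801% and 0.505% in the I192S libraries of AH47A, 287 and 621 and 0.609%, 0.703% and 0.727% in the controls. Its part in the difference was not tested.

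**Figure D2:**
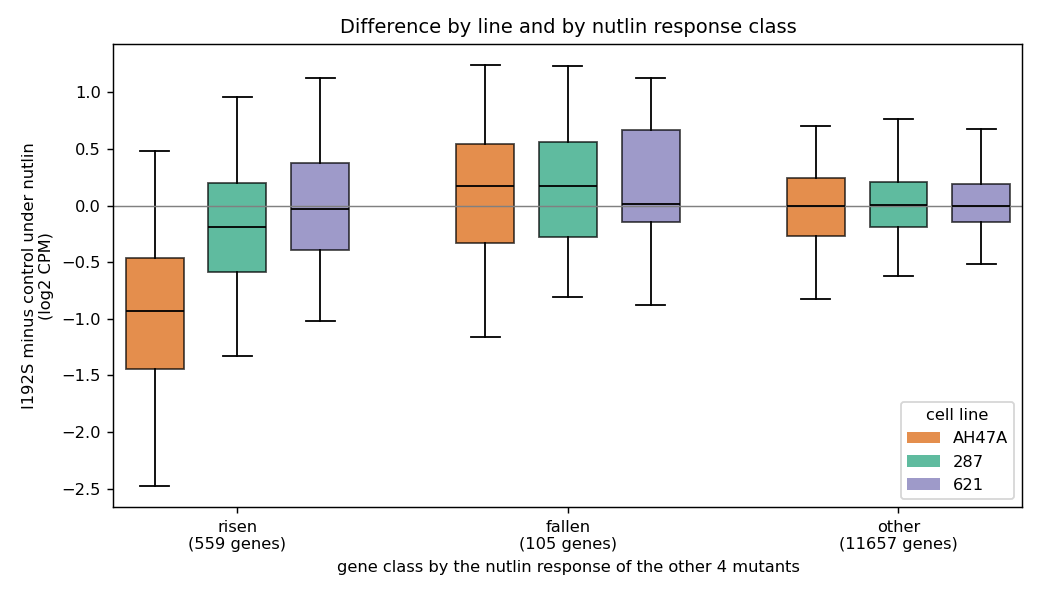
Log2 difference in CPM, I192S minus control under nutlin, in each line (1 library against 1), for genes classed by the nutlin response of the other 4 mutants; boxes span the quartiles with the median, whiskers the 5th to 95th percentile over genes. Risen genes had a median of -0.93 in AH47A, -0.19 in 287 and -0.03 in 621, and the other genes were centred near 0 in every line.

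Of 22 mevalonate and sterol genes tested, 5 were called higher with I192S than in controls under nutlin and 0 lower. Of all genes tested, 1.16% were higher. In 17 the I192S library was the higher one in all 3 lines, against 15% of all genes tested. The median was 0.28 in AH47A, 0.36 in 287 and 0.38 in 621. In the test of line by construct 2 of the 22 genes were called, against 6.08% of all genes tested. Sqle, squalene epoxidase, was at 163, 30.5 and 77.4 CPM with I192S and 87.4, 23.5 and 57.3 CPM in controls, that is, at 186%, 129.7% and 135% of the control of its line (0.60 ± 0.10, edgeR adjusted p = 0.00236, also called with the nutlin libraries alone). Without AH47A its difference was 0.41 (edgeR adjusted p = 0.096). Insig1, which holds the sterol sensor in the endoplasmic reticulum, rose by 0.47 (edgeR adjusted p = 0.0188) and Lss, lanosterol synthase, by 0.58 (edgeR adjusted p = 0.0286). With the nutlin libraries alone 2 of the 22 were called, and without AH47A 1.

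Before treatment Sqle was at 194, 121 and 154 CPM in I192S cells of AH47A, 287 and 621, against 181, 114 and 145 CPM in controls. In both groups its level under nutlin was below the untreated level in every line. The response to nutlin differed between I192S and control in 1 gene (edgeR, 0.00812% of the genes tested), with 963 genes at an unadjusted p under 0.05. That gene was in the mevalonate and sterol list. Of the 85 p53 targets 0 were called, and of the 559 risen genes 0.

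Of 38 replication genes tested, 9 were called higher with I192S than in controls under nutlin, 0 lower, and 29 did not pass. Of all genes tested, 1.16% were higher. In 23 the I192S library was the higher one in all 3 lines, against 15% of all genes tested. Their median was 0.19 in AH47A, 0.27 in 287 and 0.19 in 621. Uhrf1, which carries DNA methylation through replication, was at 274, 225 and 214 CPM with I192S and 182, 138 and 155 CPM in controls. The groups did not overlap (0.59 ± 0.08, edgeR adjusted p = 0.000248, also called with the nutlin libraries alone, and 0.59 without AH47A). Pcna, the sliding clamp of DNA polymerases, was at 165, 178 and 175 CPM with I192S and 123, 123 and 126 CPM in controls, again without overlap (0.47 ± 0.08, edgeR adjusted p = 0.00236). E2f1 and E2f2, transcription factors of S phase, rose by 0.45 (edgeR adjusted p = 0.00543) and 0.49 (edgeR adjusted p = 0.0133). The others were Pole and Pole2 of DNA polymerase epsilon, Rpa2 of the single-strand binding complex, Rrm2 of ribonucleotide reductase and the licensing factor Cdc6, with differences from 0.20 to 0.61. Without AH47A 5 of the 38 were called, and with the nutlin libraries alone 1. Of 35 mitosis genes only Cdk1, the kinase that starts mitosis, was called (0.33 ± 0.07, edgeR adjusted p = 0.0171).

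Promoters of a sterol gene and 2 replication genes are shown because the CCAAT box (capitals, also in its reverse form ATTGG) is frequent upstream of both groups. They are 150 bases upstream of a RefSeq start on GRCm38.p6, on the strand of the gene: Lss at chr10:76531455-76531604 (+), Pcna at chr2:132253181-132253330 (-) and Uhrf1 at chr17:56304163-56304312 (+).
Lss: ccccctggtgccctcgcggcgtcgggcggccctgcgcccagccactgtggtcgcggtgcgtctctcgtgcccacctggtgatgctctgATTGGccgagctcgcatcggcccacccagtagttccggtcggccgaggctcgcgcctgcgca
Pcna: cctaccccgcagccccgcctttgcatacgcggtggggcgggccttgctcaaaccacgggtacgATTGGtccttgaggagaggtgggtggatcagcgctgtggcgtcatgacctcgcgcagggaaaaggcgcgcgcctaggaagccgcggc
Uhrf1: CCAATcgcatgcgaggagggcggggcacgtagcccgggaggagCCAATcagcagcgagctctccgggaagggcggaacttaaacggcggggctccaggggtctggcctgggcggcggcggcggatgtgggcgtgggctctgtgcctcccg
In the 250 bases upstream, CCAAT on either strand was in 37.5% of 27025 genes, in 16 of 16 sterol genes with a promoter in the table and in 18 of 30 replication genes. It was also in 3 of 6 p53 feedback, 7 of 10 arrest and 4 of 12 apoptosis genes. The sterol response element SRE-1, searched as a single exact form of its 10-base core, was in 0.0814% of all genes and in 0 of the 16. Variants of the core with a changed base were not counted, so the 0 does not show that these promoters lack sterol elements. The E2F motif TTTGGCGC was in 0.485% of all genes and in 3 of the 30, and TTTCCCGC in 1.03% and in 3 of the 30. Matches of different motifs were counted separately and may overlap.

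**Figure D3:**
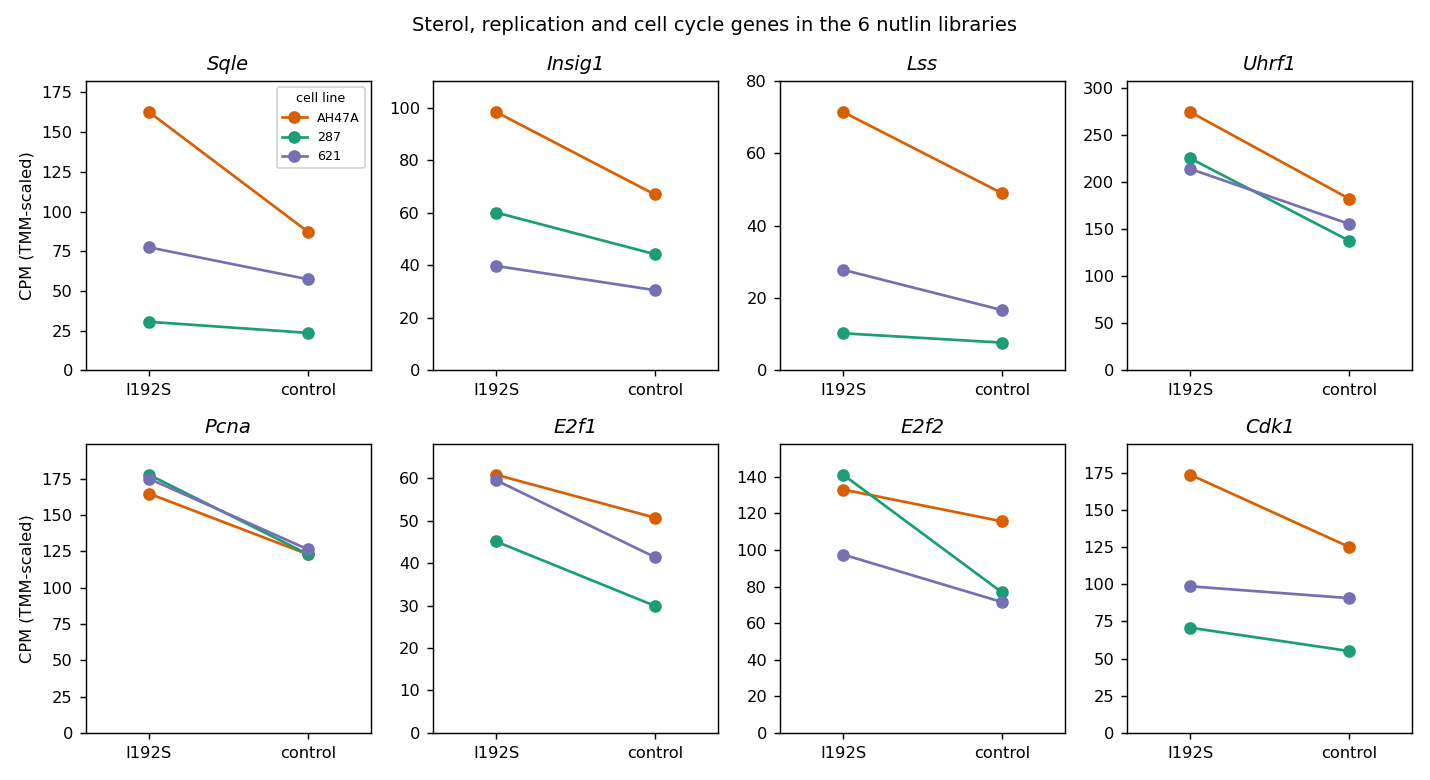
Levels (CPM after TMM scaling, linear axes from 0) of 3 sterol genes, 4 replication genes and Cdk1 in the 6 nutlin libraries; each point is 1 library, each line joins the I192S and control library of a cell line. All 8 genes were higher with I192S in all 3 lines, and the ranges of Uhrf1 and Pcna did not overlap between groups.

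Most other lists held few calls, where 2.66% of all genes tested were called. Rrn3, an initiation factor of RNA polymerase I, was the one call of 29 MYC and ribosome genes and fell: with I192S it was at 60.9%, 72.0% and 76.1% of the control level of AH47A, 287 and 621, which was 404, 628 and 410 CPM (-0.53 ± 0.07, edgeR adjusted p = 0.000248, also called with the nutlin libraries alone). Asns, asparagine synthetase, was the only call of 18 genes of the ATF4 stress response (-0.39, edgeR adjusted p = 0.0163). Of these 18, 10 were lower in all 3 lines, against 16.6% of all genes tested. Psmd8, a proteasome subunit, was the one call of 35 (-0.20, edgeR adjusted p = 0.0442). In the interferon list, 0 of 28 genes were called, and the median ran from -0.78 in AH47A and -0.29 in 287 to 0.41 in 621. The genes with the smallest p there were Mx1 (-1.34 ± 0.38, edgeR adjusted p = 0.0549) and Mx2 (-0.86 ± 0.31, edgeR adjusted p = 0.135), both antiviral GTPases. In all, 0 of 14 NF-kB, 21 chaperone, 19 hypoxia and glycolysis, 12 early B, 18 mature B or 5 plasma cell genes were called. The list of reported mutant p53 genes held 8 tested genes, of which Pcna, described above, was called.

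**Figure D4:**
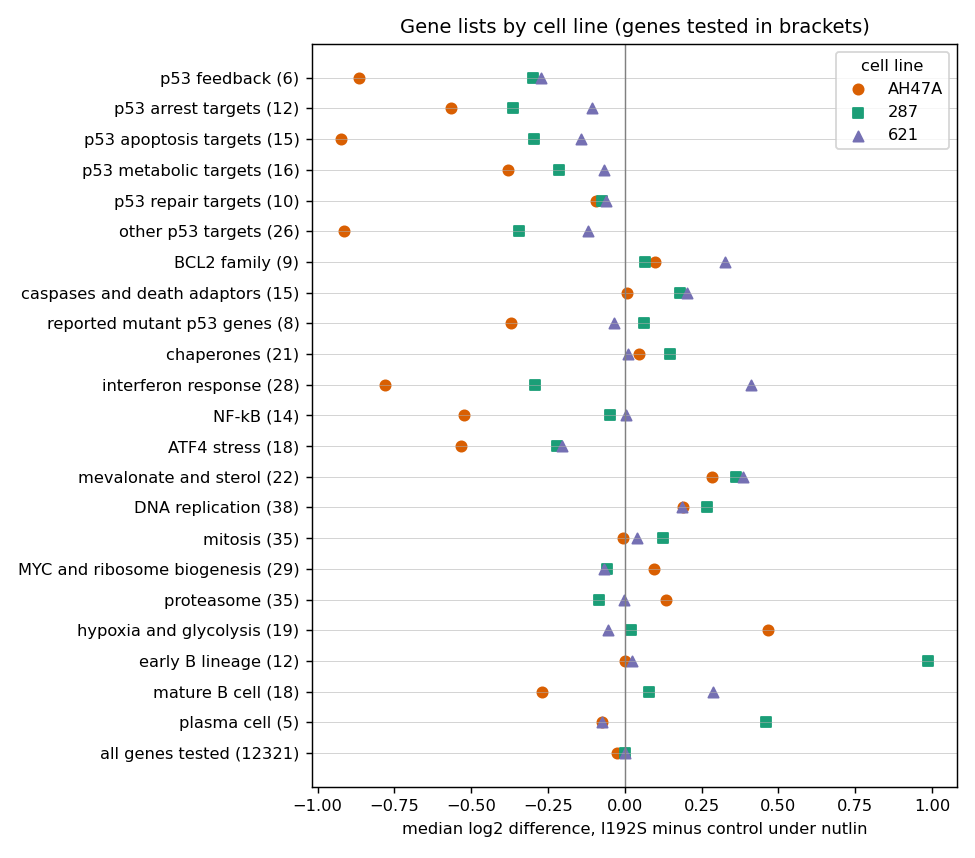
Median log2 difference in CPM, I192S minus control under nutlin, of each gene list in each line (1 library against 1; number of genes tested in brackets), beside all genes tested. Each list of p53 targets had its lowest median in AH47A, from -0.92 to -0.09 there. The interferon (-0.78), ATF4 (-0.53) and NF-kB (-0.52) lists also had their lowest median in AH47A. Sterol and replication lists lay above 0 in all 3 lines, and the interferon list reached 0.41 in 621.

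In some genes the difference between I192S and control varied in size or sign between the lines. The test of line by construct, in which untreated and nutlin libraries of a line act as repeats, called 749 genes (6.08%). It does not test the nutlin libraries alone. Since the labels name no repeat culture, it cannot tell a difference between lines from one between single cultures. Of the 328 genes that differed under nutlin, 21 were also among the 749. The smallest p belonged to Cd74, the invariant chain of MHC class II (edgeR adjusted p = 4.11e-12). It was at 1.51, 59.2 and 281 CPM with I192S in AH47A, 287 and 621, against 8.64, 109 and 81.2 CPM in controls, so it was lower in AH47A and 287 and higher in 621. The differences under nutlin were -2.33, -0.88 and 1.79, and those before treatment -1.89, -1.48 and 2.14. The class II genes H2-Aa (-1.05, -2.10 and 3.02 under nutlin; edgeR adjusted p = 3.36e-11) and H2-Ab1 (-0.44, -1.06 and 1.22; edgeR adjusted p = 5.68e-11) ran the same way. Dpp4, a cell surface peptidase, and Zfp704, which encodes a zinc finger protein, were instead high in 287, by 1.97 and 1.91. In that line the early B genes had a median of 0.99, and their markers summed to 1060 CPM with I192S and 534 CPM in the control. They summed to 492 CPM with I192S and 569 CPM in the control of AH47A, and to 1030 and 997 CPM in those of 621. Of the 85 tested p53 targets 20 were called in the test of line by construct, against 6.08% of all genes tested. Among them were Cdkn1a (edgeR adjusted p = 9.13e-05), Cd80 (edgeR adjusted p = 0.00577) and Ak1 (edgeR adjusted p = 0.0331). Other lists held calls too: 7 of 12 early B genes and 10 of 28 interferon genes.

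**Figure D5:**
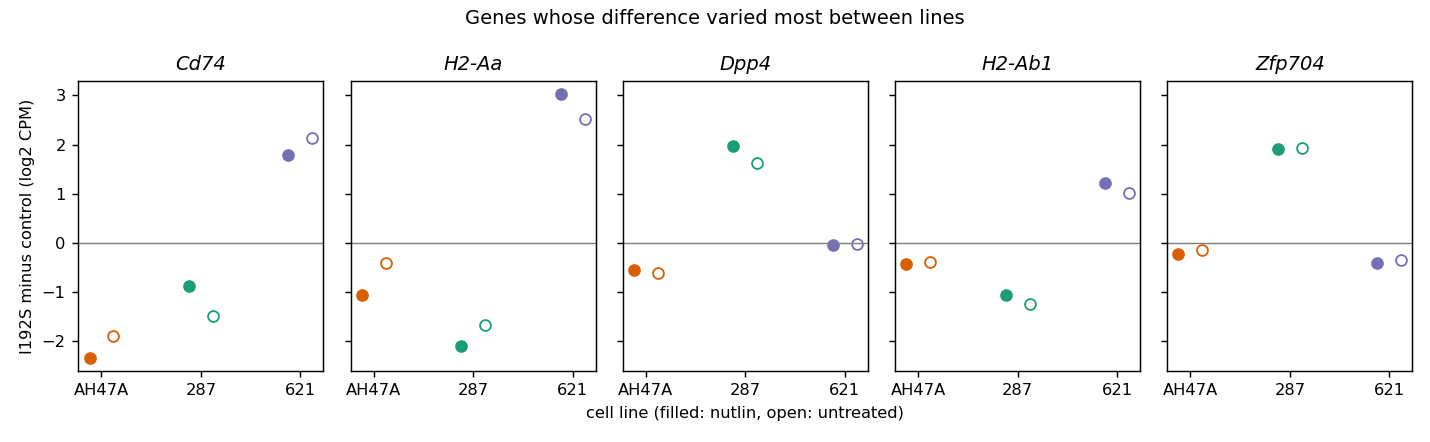
Log2 difference in CPM, I192S minus control, by cell line for the 5 genes with the smallest p in the test of line by construct; filled points are nutlin, open points untreated, each 1 library against 1. The test that chose these genes takes the nutlin and untreated libraries of a line as repeats, so their likeness is part of the choice. Cd74, H2-Aa and H2-Ab1 were below 0 in AH47A and 287 and above 0 in 621.

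The called genes with the widest differences were mostly of low abundance. Among those lower with I192S were Mmrn2 and Tek, both known from blood vessel cells, with log2 differences of -2.75 ± 0.63 and -2.73 ± 0.51 (edgeR adjusted p = 0.021 and 0.00576). Tek had 1, 10 and 5 counts in the I192S libraries of AH47A, 287 and 621 and 21, 46 and 18 in the controls. Mmrn2 had 1, 12 and 0 counts with I192S and 21, 43 and 1 in controls, so 621 adds little to it. Grb10, an adaptor of growth factor receptors, had 4, 34 and 11 counts with I192S and 25, 136 and 20 in controls (-1.95 ± 0.51, edgeR adjusted p = 0.0442). Got1l1 had 4, 88 and 12 counts with I192S and 99, 176 and 15 in controls (-1.81 ± 0.44, edgeR adjusted p = 0.0354). Ttll9, Abhd6, Cacna1e, Ak1, Plekhg1, Fas, Cd80 and Lpin1 made up the 12. Tek alone of these 12 also passed with the nutlin libraries alone.

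Among those higher, Trp53 (1.37) stood beside genes at a few CPM. Krt10, a keratin, was at 4.27, 4.38 and 2.22 CPM with I192S and 2.57, 0.986 and 0.555 CPM in controls (1.41 ± 0.38, edgeR adjusted p = 0.0393). Naaa, an acid amidase of lysosomes, was at 16.5, 7.19 and 18.9 CPM with I192S and 9.16, 3.08 and 7.77 CPM in controls (1.06 ± 0.18, edgeR adjusted p = 0.00236, also called with the nutlin libraries alone). Each Naaa value with I192S was above the control of its line. The others were Snora52, Hacd1, Ceacam2, Lingo3, G6pd2, Srd5a1, Ocel1, Ctdspl and a gene without a symbol, with differences from 0.99 to 1.41. G6pd2 has a near-identical relative, so its counts are uncertain. Snora52 is a small nucleolar RNA gene within a host transcript, and its reads and those of the host cannot be told apart.

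Under nutlin the control libraries were also set apart from the other mutants, and all mutants share these 3 controls. Of the 6 constructs in each line, the control had the lowest Trp53 and the highest Cdkn1a, Mdm2 and Mdm4 in all 3 lines. A property of the 3 control libraries and an effect of the mutant protein therefore cannot be told apart from I192S minus control by itself. Against the mean of the other 4 mutants, a contrast without controls, I192S differed in 0 genes (0%; edgeR, 976 at an unadjusted p under 0.05). Taken pair by pair over 4 pairs, edgeR called 2 genes against G280 (0.0162%), 1 against R246Q (0.00812%), 2 against R270H (0.0162%) and 0 against V170M (0%). Wls was called in the pairs with G280, R246Q and R270H, and was named after its values were seen. It was above 1 CPM in AH47A alone, at 1.24 CPM with I192S and 14.1 CPM in the control, with 2.47 to 22.5 CPM in the other mutants. Cstf2t and Elk1 were the other 2 genes.

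The place of I192S among the 6 constructs was not the same in every line or for every gene. Cdkn1a with I192S, at 131 CPM, was the lowest of the 6 constructs in AH47A, where the other mutants held 137 to 236 CPM. In 287 I192S, at 504 CPM, was second only to the control, above the 294 to 471 CPM of the other mutants. In 621 it was again second, at 176 CPM against 104 to 165 CPM. For Mdm2, I192S was the lowest of the 6 in AH47A and ranked 3 from the top in 287 and 621. For Mdm4 it was the lowest in AH47A too, but ranked 5 in 287, at 504 CPM with 423 to 805 CPM in the other mutants, and 4 in 621. These are single libraries and the difference between the lines was not tested under nutlin. Without AH47A, 39 genes differed from the other mutants (edgeR), 34 of them higher with I192S. Trp53 itself was highest of the 6 with I192S in AH47A and ranked 3 in 287 and 4 in 621. The fitted difference from the other mutants was -0.08 ± 0.19 for Trp53, -0.12 ± 0.11 for Mdm4 and 0.18 ± 0.13 for Cdkn1a.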

How the data were processed

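RNA-seq read counts per mouse gene were analysed. The deposited values were raw counts made by the authors with bcl2fastq 1.8.4 and featureCounts on mm10 (GRCm38), per the submitters' processing notes; the aligner, annotation and strandedness were not stated there. Reads of overlapping or antisense genes cannot be told apart. The table held 27179 genes in 36 libraries of 5404113 to 10718302 counts, and 36 of 36 sample files were identical to its columns. Genes without a symbol (859, 0.303% of counts) kept their number.

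The counts were tested with edgeR 4.0.16 (R 4.3.3), TMM scaling and filterByExpr with a minimum count of 10, which kept 12321 genes and 99.94% of counts. The quasi-likelihood model (robust) held 12 groups of construct and treatment and the line within each treatment, with 20 residual degrees of freedom and a biological coefficient of variation of 9.68%. Line was blocked because every construct was measured in the same 3 lines; deviations of same-line libraries from their group means correlated by 0.832, 0.867 and 0.876 between I192S and control under nutlin. Line by construct was tested in a model of all 2-way terms, with 10 residual degrees of freedom. All adjusted p are Benjamini-Hochberg values over the genes tested, and a call means an adjusted p under 0.05. Differences by line are log2 CPM with a prior count of 2, without a test. The scripts were tested on simulated data.

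Alternatives were RLE and total scaling, no filter, other spreads and blocks, DESeq2 1.42.0, limma-voom (limma 3.58.1), a prior count of 0.5, and leaving out lines or libraries. A spread for each treatment in limma-voom was added after seeing the data. The comparison, lists and genes were chosen with earlier results of these data known. Genes named are 10 p53-related genes in every library, the 12 called genes of largest difference in each direction with 1 sign in all lines and a mean of at least 1 CPM, up to 4 per list with the smallest p, and the 5 genes with the smallest p in line by construct; others named are called members of lists, some of which are not reported here, or were named after their values were seen. Promoters were matched by gene and come from RefSeq.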

Additional observations from a re-analysis of the deposited data

Results flagged for a closer look

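The test of line by construct over untreated and nutlin libraries called 749 genes (edgeR, 6.08% of the genes tested). Untreated and nutlin libraries of a line act as repeats in it, and the labels name no repeat culture. A difference between lines and one between single cultures cannot be told apart by it. The smallest adjusted p were 4.11e-12 (Cd74), 3.36e-11 (H2-Aa), 3.64e-11 (Dpp4), 5.68e-11 (H2-Ab1) and 2.37e-10 (Zfp704). Among the genes named for their difference under nutlin, those called in this test were Cdkn1a (edgeR adjusted p = 9.13e-05), Cd80 (edgeR adjusted p = 0.00577), Trp53 (edgeR adjusted p = 0.0153), Got1l1 (edgeR adjusted p = 0.0277), Ak1 (edgeR adjusted p = 0.0331) and Ctdspl (edgeR adjusted p = 0.0349). Under nutlin Cdkn1a differed by -1.60 in AH47A, -0.26 in 287 and -0.41 in 621, and Got1l1 by -3.71, -1.22 and -0.58. The response to nutlin differed between I192S and control in 1 gene (edgeR).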

How the results depend on the processing

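The number of genes called between I192S and control under nutlin (328) was within 1.5 times with RLE scaling (346), library totals (317), limma-voom (459) and no filter on low counts. It was 510 with DESeq2, 185 with limma-voom and a spread for each treatment, 20 with I192S and control libraries only, 13 with the nutlin libraries only, 2 with an additive line term and 0 with the 6 compared libraries or with no line block, that is, without the pairing by line. Leaving out a line or a library gave 3 to 603 calls, with 75 without AH47A, 3 without 287, 33 without the I192S library of AH47A, 119, 218 and 170 without the control library of AH47A, 287 and 621, and 603 without the I192S library of 621. Untreated, the 1 call became 5 without a filter, with DESeq2 and with limma-voom and a spread for each treatment, 4 with limma-voom, 0 without the pairing, and 0 to 7 when a line or library was left out. The 1 call of the response difference became 15 with DESeq2, 0 with an additive line term, without the pairing, with I192S and control libraries only and with a spread for each treatment, and 0 to 42 in the leave-outs. Against the other mutants, 0 became 2 without a filter and 2 to 39 without a line. The cause of these moves was not tested. Myc, which did not pass, was at -0.09 and ranged from -0.24 to 0.061 in the leave-outs, above 0 without AH47A (0.03) or without its I192S library (0.0608). The calls of Mdm2, Mdm4, Uhrf1, Pcna, E2f1, Naaa and Rrn3 were lost in 1 of 9 leave-outs, that without 287; those of Cdkn1a, Bax and Fas were lost in 6 of 9. The 559 risen genes kept a median below 0 in every alternative, from -0.53 to -0.12, and the medians of the 3 lines kept their sign and order with a prior count of 0.5. Libraries of this depth limit genes of a few counts, such as Tek and Mmrn2.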
